A study of Mus musculus with 2 samples.

Results

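Transcripts of the cytosolic ribosomal proteins, the protein parts of the ribosome that makes most of a cell's protein, were followed in lung fibroblasts of mice given saline or bleomycin. Genes were taken by symbol from the deposited count table: those that begin with Rpl or Rps and a number, together with Rplp0, Rplp1, Rplp2 and Rpsa, leaving out the 10 S6 kinase genes whose symbols begin with Rps6k. This gave 72 of the 16040 genes in the table, 41 of the large subunit, 30 of the small subunit and Rps19bp1, which encodes a protein that binds Rps19 and is not part of the ribosome. Of the 79 proteins usually counted in the mammalian cytosolic ribosome, 68 had an entry under their own symbol, among them Fau, whose symbol the rule does not take. The other 11 were not analysed here: Rpl5, Rpl6, Rpl29, Rpl31, Rpl34, Rpl35a, Rplp1 and Rplp2 of the large and Rps18, Rps21 and Rps26 of the small subunit.

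Both groups were mice of the strain Col1a2-EGFP, which carries a green fluorescent reporter under a type 1 collagen gene, and both were injected into the trachea, with saline or with bleomycin, an agent widely used to produce lung fibrosis. Lungs were taken on day 14, and cells that carried the reporter and lacked lineage markers were sorted. Each group is 1 library made from fibroblasts of 3 mice, so a difference has no replicate check and any test on counts compares the libraries and not the treatments. Neither the age of the mice nor the lineage markers are stated in the labels. Cells entered a library by their reporter signal, and Col1a2 itself had 1636 counts after saline and 5613 after bleomycin. The labels do not say whether the 3 mice of a group were pooled in equal parts.

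A ribosome has a small subunit, which reads the messenger RNA, and a large subunit, which joins amino acids and lets the new chain leave through a tunnel. Each subunit needs most of its proteins in equal numbers, and the messenger RNAs for them share a run of pyrimidines at their start through which growth signals, in particular mTOR, control their translation. Fibroblasts that lay down matrix secrete large amounts of collagen, and ribosomal protein transcripts are among the most abundant in nearly all cells. Ribosomal protein genes also have many processed pseudogenes, which matters for short tags.

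The libraries were made by serial analysis of gene expression, which counts 1 short tag for each transcript, next to the 3′-most site of the anchoring enzyme. For the kit named in the labels that enzyme is NlaIII, which cuts at CATG, so the tag of each gene can be predicted from its transcript. The deposited table holds no tag sequences, so the tags below are predictions from GENCODE M21 transcripts (build GRCm38), matched for 72 of 72 genes through the transcript record named in the table. A full tag was taken as 27 bases, with CATG in capitals. Tags are shown for 4 genes with differences between the libraries and for 2 pairs of close copies.
Rpl12: CATGacatcatagatgacatcaacagt
Rpl41: CATGagagcgaagtggcggaagaagag
Rpl14: CATGacagtacaacagtgtcgttaacc
Rpl37a: CATGaaaacagtggccggtggggcctg
Rps27: CATGcacaaacggtagtcttgtgtgtt
Rps27l: CATGcacagactgtggttctttgtgtg
Rpl36a: CATGgtgaacgtgcctaaaacccgccg
Rpl36al: CATGgtcaacgtaccaaaaacccgaag
The tag of Rpl14 lies in the 3′ UTR at chr9:120574582-120574608 on the plus strand. Those of Rpl12 (chr2:32963806-32963832, plus strand) and Rpl37a (chr1:72712189-72712215, plus strand) lie in coding exons. The tag of Rps27l also lies in a coding exon (chr9:66947616-66947642, plus strand), and that of Rps27 in a transcript annotated as non-coding (chr3:90212989-90213015, minus strand). The tag of Rpl36al covers coding sequence and UTR (chr12:69183111-69183137, minus strand), and those of Rpl41 and Rpl36a cross an exon junction. Rps27 and Rps27l differ at 7 of 27 bases and Rpl36a and Rpl36al at 5 of 27, so an exact match tells these copies apart.

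In 5 genes the last CATG lies so near the annotated transcript end that no full tag fits, and the tag would run on into the poly(A) tail. Of these, 3 are shown up to the transcript end, because 3 of the 4 genes past a 2-fold difference have such a tag, Rps4x and Rps10 among them.
Rps4x: CATGgtgaaactac
Rpl22: CATGgcta
Rps10: CATGtc
They lie in 3′ UTRs, Rps4x at chrX:102184941-102184954 (minus strand), Rpl22 at chr4:152334064-152334071 (plus strand) and Rps10 at chr17:27630418-27630423 (minus strand). Rpl17 has a short tag too. Of the 67 genes with a full tag, 29 had a tag found in transcripts of 1 gene name and 38 a tag found in those of several, most of all Rpl7l1, whose tag occurred under 178 names. A name was taken where the tag followed any CATG of its transcripts, not only the last. Not every name need therefore yield that tag. The labels do not say how shared tags were counted, and the values of those 38 genes may include copies.

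Ribosomal protein transcripts made up 8.97% of all counts after saline and 9.65% after bleomycin. The saline library held 1080798 counts and the bleomycin library 1099840, and the 72 genes had 96955 and 106119 of them. The sum was 1.11-fold higher in the bleomycin library, with an exact 95% interval of 1.1 to 1.12 that covers counting error only. Ratios here use library sizes scaled by the trimmed mean of M values (TMM), while CPM (counts scaled to equal library totals) use plain totals; with plain totals the ratio of sums was 1.08. In bulk libraries, fewer cells of a type and less RNA per cell cannot be told apart.

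Large and small subunit genes had nearly equal sums in both libraries. These sums cover 41 large and 30 small subunit genes, without the 8 large and 3 small subunit proteins not analysed. The median count per gene was 1138 for the large and 1914 for the small subunit in saline, and 1134 and 1990 in bleomycin. The large subunit genes summed to 44358 CPM in the saline library (exact Poisson interval 43962 to 44757) and to 47958 CPM in the bleomycin library (47549 to 48369), a ratio of 1.11 (1.1 to 1.13). The small subunit genes summed to 45349 CPM (44948 to 45752) and 48528 CPM (48117 to 48941), a ratio of 1.1 (1.09 to 1.11). Both subunits were thus higher in the bleomycin library by more than counting error. The large to small ratio was 0.978 in saline and 0.988 in bleomycin, and the ratio between these was 1.010 (0.993 to 1.028), an interval that holds 1. In each subunit the gene with the most counts over both libraries was then left out, Rpl10a in the large subunit. The large to small ratio was then 1.099 and 1.057, with a ratio of 0.961 (0.944 to 0.979). Rpl10a was itself 1.45-fold higher in the bleomycin library, and leaving out other genes was not tested. The median log2 ratio of single genes was 0.05 for the 38 large subunit genes tested and 0.25 for the 28 small subunit genes, against 0.02 for all genes tested.

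**Figure D1:**
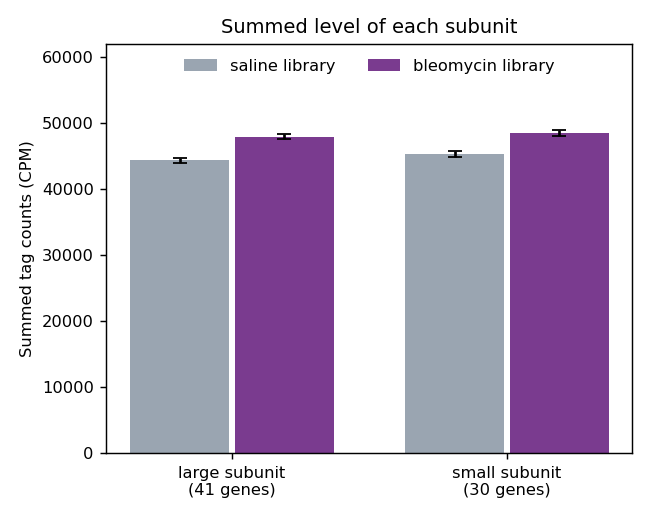
Summed tag counts of the large and small subunit genes in the saline (grey) and bleomycin (purple) libraries, in CPM on an axis from 0. Bars are single libraries and error bars are exact 95% Poisson intervals, which cover counting error only; both subunits lie between 44358 and 48528 CPM.

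A single gene was tested where both libraries together held at least 10 counts, which left 66 of the 72, with an exact binomial test of the 2 counts and Benjamini-Hochberg adjustment over the 9369 genes tested in the table. The 6 genes below that minimum were Rpl17 with 3 saline and 6 bleomycin counts, Rpl22 with 5 and 3, Rps7 with 1 and 3, Rps15a with 2 and 3, Rpl3l with 0 and 1, and Rps19bp1 with none in either library. For a gene at 0, the upper limit, taken as 3 counts, was 2.78 CPM after saline and 2.73 CPM after bleomycin. Most ribosomal protein genes were not past 1.5-fold, and neither were most of all genes tested. Past 2-fold, with the adjusted p below 0.05, 2 genes were higher and 2 lower in the bleomycin library, where 8.11% of all genes tested were higher and 8.59% lower. Past 1.5-fold, 9 of 66 were higher and 5 of 66 lower, against 11.8% and 12.4% of all genes tested. The count of higher genes was thus near its share in the whole table. Without a limit on size, 30 were higher, 12 lower and 24 neither, against 13.8% higher and 14.1% lower in the whole table. High counts let small differences pass: of the 283 other genes with at least 1000 counts over both libraries, 38.5% were higher and 43.8% lower. If a coefficient of variation of 0.2 between preparations is assumed, an edgeR exact negative binomial test left 0 ribosomal protein genes higher and 2 lower at any size, Rps4x among them.

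**Figure D2:**
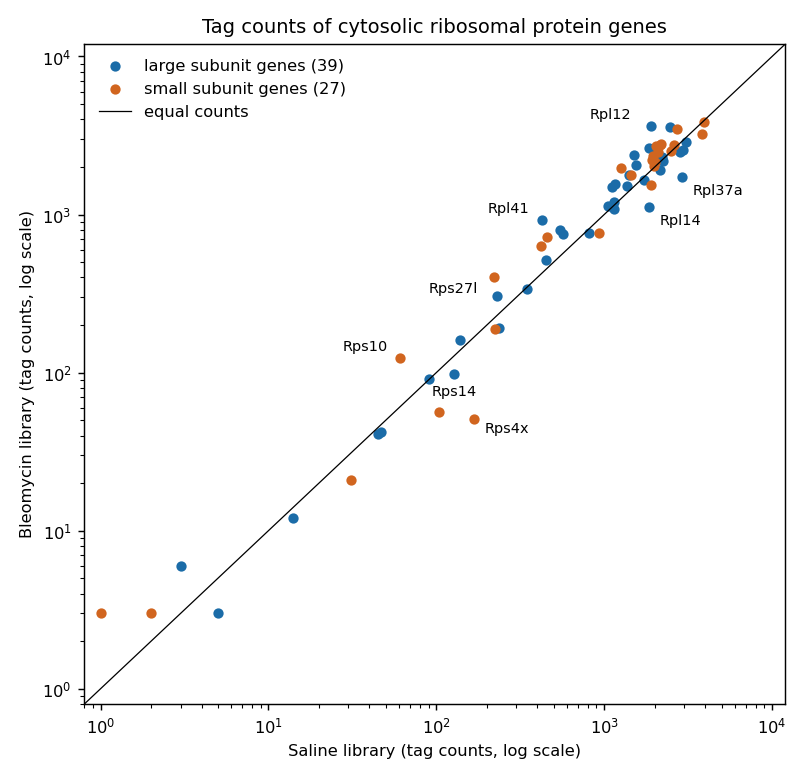
Tag counts of each ribosomal protein gene in the saline (x axis) and bleomycin (y axis) libraries, both on log scales, with large subunit genes in blue, small subunit genes in orange and equal counts as the line. Rpl3l, with 0 and 1 counts, and Rps19bp1, with none, are not drawn, nor are a few genes not reported here; most points lie near the line, with Rpl41 and Rps10 above it and Rps4x below it.

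The ratios of abundant ribosomal protein genes lay close together. Among the 48 with at least 1000 counts over both libraries, the log2 ratio ranged from −0.73 to 1.13, with a standard deviation over genes of 0.372 and a median of 0.20. Among the 283 other genes of that abundance it ranged from −3.38 to 7.74, with a standard deviation of 1.145 and a median of −0.04. Of those 48 genes, 6 were higher and 2 lower past 1.5-fold, while 21.2% of the 283 other genes were higher and 27.2% lower.

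**Figure D3:**
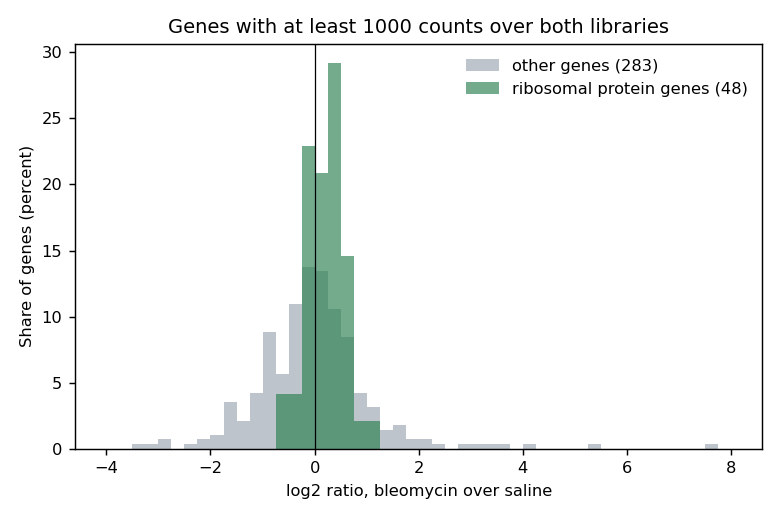
Share of genes, in percent, by log2 ratio of bleomycin over saline, for genes with at least 1000 counts over both libraries: 48 ribosomal protein genes in green and 283 other genes in grey. The ribosomal protein genes lie between −0.73 and 1.13, within the wider range of the other genes.

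The large subunit genes higher past 1.5-fold were Rpl41, Rpl12 and Rpl32. Rpl41, the smallest ribosomal protein, had 424 saline and 921 bleomycin counts and was 2.20-fold higher (1.96 to 2.47). It was the only ribosomal protein gene with a full tag past 2-fold, and with a coefficient of variation of 0.2 its adjusted p by edgeR's exact test was 0.0908. The tag of Rpl41 was found under 2 gene names. Rpl12, which sits at the base of the stalk that recruits elongation factors, had 1912 saline and 3626 bleomycin counts, a level 1.92-fold higher (1.81 to 2.03). It had rank 11 among large subunit genes in saline and rank 1 in bleomycin, and its gain of 1528 CPM exceeded that of any other ribosomal protein gene. Its tag was found in transcripts of 11 gene names. Rplp0, the protein of the stalk to which the acidic P proteins bind, had 348 and 340 counts and was not called, with a ratio of 0.988 (0.848 to 1.15). Rpl32 had 1496 and 2380 counts and was 1.61-fold higher (1.51 to 1.72), with a tag found under 1 gene name.

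Other large subunit genes were higher by less than 1.5-fold but beyond counting error. Rpl10a, part of the mobile stalk next to the exit site of transfer RNA, had 2480 and 3558 counts, a ratio of 1.45 (1.38 to 1.53). Rpl23 had 1854 and 2655 counts and the same ratio (1.36 to 1.54). Rpl11, which with Rpl5 and the 5S RNA forms a particle that can bind the p53 regulator Mdm2, had 542 and 803 counts and a ratio that rounds to 1.5 but lies just under that limit (1.34 to 1.67). Rpl13a, also known for silencing inflammatory messenger RNAs when released from the ribosome, had 1545 and 2066 counts, a ratio of 1.35 (1.27 to 1.45). Rpl19, Rpl27, Rpl28, Rpl36 and Rpl7 had ratios between 1.28 and 1.35.

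Of 4 genes for proteins around the catalytic centre, 2 were lower and 0 higher at any size, and of 5 tested around the tunnel exit 1 was higher and 0 lower. Over all genes tested, 13.8% were higher and 14.1% lower at any size. Of the 283 other genes with at least 1000 counts, 38.5% were higher and 43.8% lower. Both groups are small and were set up with the values known, so the counts are a description. Rpl10, which joins the large subunit late and reaches toward the catalytic centre, had 2951 and 2551 counts, a ratio of 0.874 (0.829 to 0.922). Rpl8, at the catalytic centre, had 2818 and 2499 counts, a ratio of 0.897 (0.849 to 0.947). Both were lower by more than counting error. Rpl3, also near that centre, had 1138 and 1202 counts and was not called at a ratio of 1.07 (0.984 to 1.16), and Rpl4, whose loop lines the tunnel, had only 14 and 12. Among proteins around the tunnel exit, Rpl19 was called higher and Rpl23a, Rpl26, Rpl35 and Rpl39 were not called, with ratios from 0.951 to 1.17. Rpl9, the most abundant large subunit gene in saline, had 3082 and 2876 counts, a ratio of 0.944 (0.897 to 0.993), and was not called (adjusted p = 0.0818, exact binomial test); with plain totals it was 0.917, with adjusted p = 0.00475.

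The large subunit genes lower past 1.5-fold included Rpl37a and Rpl14. Rpl37a, a zinc-binding protein of the large subunit, had 2918 saline and 1735 bleomycin counts, a ratio of 0.601 (0.566 to 0.638). It moved from rank 3 to rank 15 among large subunit genes, and it fell by 1122 CPM, more than any other ribosomal protein gene. Rpl14 had 1848 saline and 1120 bleomycin counts, a ratio of 0.613 (0.569 to 0.660). Its tag was found under 1 gene name and that of Rpl37a under 3. With a coefficient of variation of 0.2, neither passed edgeR's exact test, at adjusted p = 0.372 for Rpl37a and 0.408 for Rpl14. Rpl37, a zinc-binding protein that is a distinct component and not a copy of Rpl37a, had 2207 and 2215 counts, a ratio of 1.01 (0.956 to 1.08).

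Rpl5 was not analysed under its own symbol, but a predicted entry described as like Rpl5 held 3053 and 3140 counts, a ratio of 1.04 (0.989 to 1.09). This entry was chosen after its values were seen, and whether it holds tags of Rpl5 itself was not tested.

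**Figure D4:**
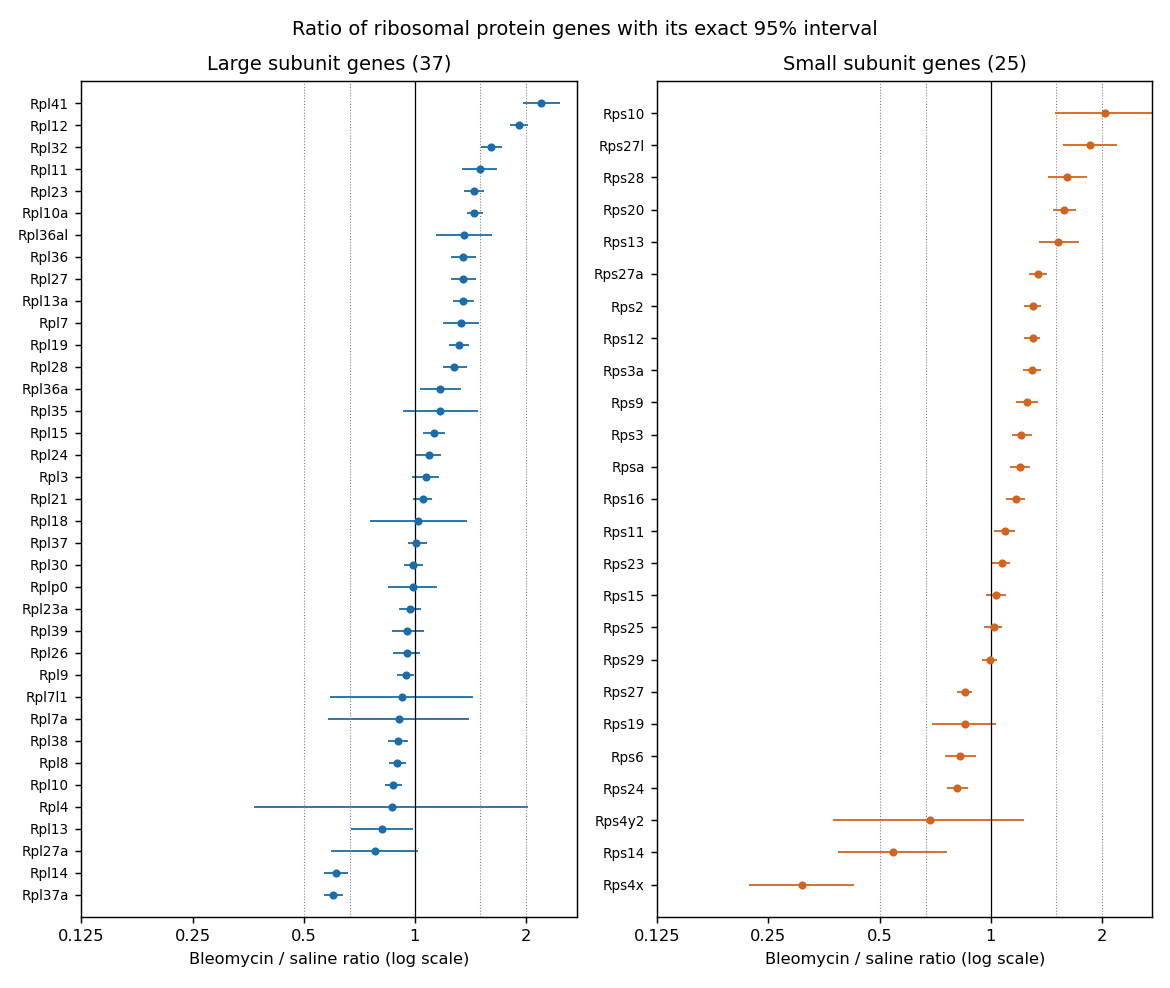
Ratio of the bleomycin to the saline library for the tested genes of the large (left) and small subunit (right) that are reported here, on a log scale, with exact 95% intervals that cover counting error only. The solid line marks equal levels and dotted lines mark 1.5-fold and 2-fold in either direction; most intervals lie between the 1.5-fold lines, and Rps4x lies below all others drawn.

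In the small subunit, genes for proteins of the head, one structural part of that subunit, were called higher or not called. Of 13 head genes tested, 9 were higher at any size, 4 of these past 1.5-fold, and 0 lower, with a median log2 ratio of 0.375. Of 13 genes of the body and platform tested, 6 were higher and 6 lower at any size, 1 and 2 past 1.5-fold, with a median of 0.094. Over all genes tested, 13.8% were higher and 14.1% lower at any size, and of the 283 other genes with at least 1000 counts 38.5% and 43.8%. These 2 groups were set up with the values known, so the counts are a description. Rps20 had 1259 and 1965 counts and was 1.58-fold higher (1.47 to 1.70), and Rps28 had 455 and 726 counts and was 1.61-fold higher (1.43 to 1.82). Rps10 had 61 and 123 counts and was 2.04-fold higher (1.49 to 2.82), but it has the shortest tag printed above, and with plain totals it was no longer past 2-fold. The head proteins Rps12 (2712 and 3478 counts) and Rps27a, made as a fusion with ubiquitin (2036 and 2700), had ratios of 1.30 and 1.34. Rps29, with 3936 and 3864 counts, Rps25, with 2500 and 2511, and Rps15, with 1971 and 2015, were not called, with intervals inside 0.949 to 1.1.

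Body and platform genes were split. Rps27 had 3828 and 3219 counts, a ratio of 0.850 (0.811 to 0.891), and Rps24 had 1903 and 1528 with 0.812 (0.759 to 0.869). Rps6, the protein phosphorylated by the S6 kinases, had 932 and 763 counts, a ratio of 0.828 (0.751 to 0.912). All 3 were lower by more than counting error and by less than 1.5-fold. On the other side, Rps2, at the entry of the messenger channel, had 2190 and 2810 counts, a ratio of 1.30 (1.23 to 1.37), and Rps3a had 2151 and 2744 with 1.29 (1.22 to 1.37). Rpsa, known also as a laminin-binding protein, had 2102 and 2500 counts, a ratio of 1.20 (1.13 to 1.28). Rps13 had 420 and 633 counts, a ratio of 1.52 (1.35 to 1.73), which fell to 1.48 with plain totals and so below 1.5.

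Rps4x and Rps14 were lower past 1.5-fold. Rps4x, the X-linked form of a body protein, had 167 saline and 51 bleomycin counts, a level 3.24-fold lower (2.35 to 4.52), and it too has a short tag. Its copy Rps4y2, annotated as non-coding, had 31 and 21 counts and was not called at a ratio of 0.685 (0.374 to 1.23). Rps14, a platform protein whose loss causes the anaemia of a human chromosome deletion syndrome, had 104 and 56 counts, a ratio of 0.545 (0.386 to 0.761).

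Of the close copies, Rps27l had the larger difference. Rps27l, a copy of Rps27 that p53 is known to induce, had 220 and 404 counts and was 1.86-fold higher (1.57 to 2.20), while Rps27 was lower at a ratio of 0.850. The tag of Rps27 was found under 5 gene names and that of Rps27l under 1, so the value of Rps27 may include other copies. Rps27l did not pass with a coefficient of variation of 0.2 (adjusted p = 0.264 by edgeR's exact test), and neither did Rps27, Rpl36al, Rpl36a or Fau. Rpl36al had 229 and 307 counts, a ratio of 1.36 (1.14 to 1.62), and Rpl36a had 449 and 518 with 1.17 (1.03 to 1.33), with intervals that overlap. Rpl7l1, a relative of Rpl7 that acts in ribosome assembly, had 45 and 41 counts, a ratio of 0.921 (0.588 to 1.44). Rpl3l, the form of Rpl3 found in striated muscle, had 0 and 1. Fau, which encodes a ribosomal protein fused to a ubiquitin-like protein, was higher by less than 1.5-fold, with 2404 and 3061 counts (ratio 1.29, 1.22 to 1.36).

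Genes with a short tag had low counts, and those tested were past 2-fold. The 5 genes with a short tag had between 3 and 167 counts in saline and between 3 and 123 in bleomycin, while the 29 with a tag under 1 gene name had medians of 1496 and 1920 and the 38 with a shared tag medians of 1281 and 1540.5. All 3 short-tag genes with enough counts to test, Rps4x and Rps10 among them, were past 2-fold, and 1 of the 63 tested genes with a full tag was. Tags under 1 gene name and shared tags had similar median log2 ratios, 0.17 over 25 genes and 0.11 over 38. Among the other genes of the table, 18.6% of 489 tested with a short tag and 16.7% of 8409 with a full tag were past 2-fold in either direction. Low counts were also found with full tags under 1 gene name, as in Rpl4, Rps7 and Rps15a. The part of tag form in any difference was not tested.

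**Figure D5:**
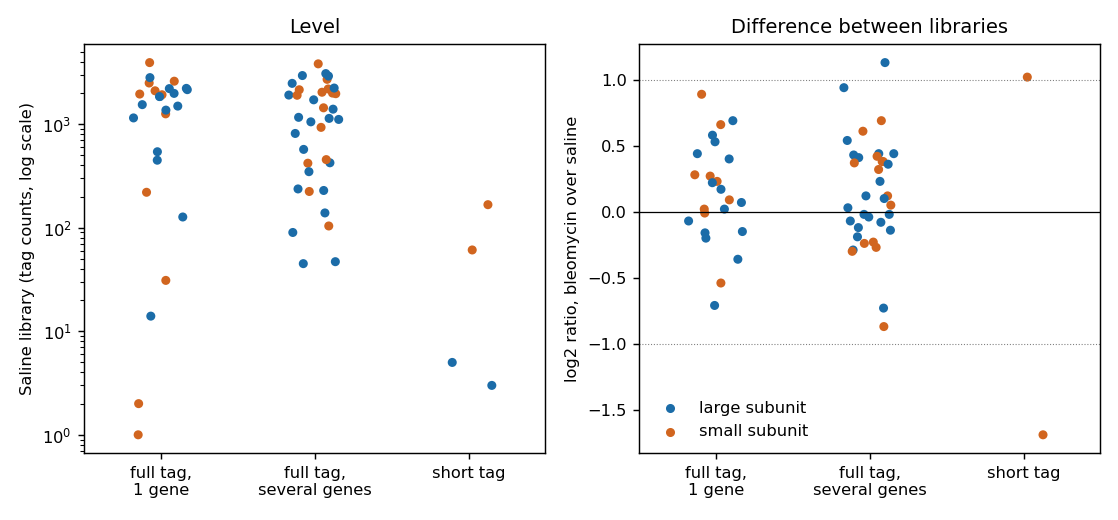
Saline tag counts on a log scale (left) and log2 ratio of bleomycin over saline (right) for ribosomal protein genes by their predicted tag: full and under 1 gene name, full and under several, or short; large subunit genes in blue, small in orange, with horizontal scatter for legibility. Genes at 0 in saline are left out on the left and untested genes on the right; a few genes not reported here are not drawn; the short-tag genes hold at most 167 counts, and those drawn on the right lie beyond the dotted 2-fold lines.

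Diamond-Blackfan anaemia is an inherited failure of red cell production caused by too little of single ribosomal proteins. A list of 10 genes mutated in it was drawn up with the values known and may not hold every such gene. Of 9 tested, 5 were higher and 1 lower at any size, with a median log2 ratio of 0.174. Over all genes tested, 13.8% were higher and 14.1% lower at any size. Of the 283 other genes with at least 1000 counts, 38.5% were higher and 43.8% lower. Rps19, the gene most often affected, had 224 and 188 counts and was not called at 0.849 (0.695 to 1.03). Rps28, Rps10, Rpl11 and Rpl15 were among the higher members of this list, and Rps24 was its lower one. Rpl15 had 1368 and 1526 counts, a ratio of 1.13 (1.05 to 1.21).

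Other genes of translation were taken from lists by function, and their counts past 2-fold stand beside 8.11% higher and 8.59% lower, and their medians beside 0.02, over all genes tested. Of 15 genes of elongation and nascent chain handling tested, 4 were higher and 0 lower past 2-fold, with a median log2 ratio of 0.393. Eef1g, a subunit of the complex that recharges elongation factor 1, had 136 and 547 counts and was 4.07-fold higher (3.37 to 4.94), and its partner Eef1b2 had 431 and 996 counts and was 2.34-fold higher (2.09 to 2.62). Of 36 genes tested from a list of initiation factors and their regulators, 7 were higher and 1 lower past 2-fold, with a median of 0.249. Eif1ax, which helps scan for the start codon, had 27 and 71 counts and was 2.66-fold higher (1.69 to 4.31), while Eif4a2, an RNA helicase of the cap-binding complex, had 475 saline and 170 bleomycin counts, a level 2.76-fold lower (2.31 to 3.31). Of 73 ribosome biogenesis genes, 9 were higher and 2 lower past 2-fold, with a median of 0.257. Sdad1, which acts in large subunit assembly, had 6 and 22 counts and was 3.71-fold higher (1.46 to 11.2), and Nop58, a core protein of the RNA-modifying particles of the nucleolus, had 350 saline and 135 bleomycin counts, a level 2.56-fold lower (2.10 to 3.15). With a coefficient of variation of 0.2, of the genes named from these lists Eef1g, Eif4a2 and Nop58 still passed edgeR's exact test, at adjusted p = 0.000370, 0.0198 and 0.0392.

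Regulators of ribosomal protein translation were measured at low counts. Larp1, which binds the pyrimidine run of ribosomal protein messenger RNAs, had 19 and 58 counts and was 3.09-fold higher (1.81 to 5.49). Eef2k, the kinase that slows elongation, had 7 and 28 counts and was 4.05-fold higher (1.73 to 11.0). With a coefficient of variation of 0.2, neither passed edgeR's exact test, at adjusted p = 0.0646 for Larp1 and 0.0855 for Eef2k. Of 19 growth control genes tested, these 2 (Eef2k is also in the elongation list) were higher past 2-fold and 0 were lower, with a median log2 ratio of 0.369. Over all genes tested, 8.11% were higher and 8.59% lower past 2-fold, so the count of higher genes was near that share. Of the 10 S6 kinase genes, 4 could be tested and 0 were called, against 13.8% higher and 14.1% lower at any size over all genes tested. Rps6kb1, the S6 kinase downstream of mTOR, had 28 and 27 counts (ratio 0.975, 0.553 to 1.72).

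The 75 mitochondrial ribosomal protein genes, which build a separate ribosome, had a higher median ratio. Of 62 tested, 2 were higher and 0 lower past 2-fold and 7 and 0 past 1.5-fold, with a median log2 ratio of 0.295, against 0.108 for the cytosolic genes. Over all genes tested, 8.11% were higher and 8.59% lower past 2-fold, and 11.8% and 12.4% past 1.5-fold, so the counts of higher mitochondrial genes were near or below that background. No test of that difference was made, since genes of 1 pair of libraries are not replicates.

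Markers of other cells and states also differed between the libraries. Fibroblast genes were present in both, with 8 of 8 having counts and a summed level of 13276 CPM in saline and 20246 CPM in bleomycin. They did not move together: 4 were higher and 2 lower past 1.5-fold, with log2 ratios from −1.58 to 2.33, and Col1a2 was higher while Pdgfra, a receptor that marks fibroblasts, was lower at a ratio of 0.642. The 12 endothelial markers summed to 516 and 42.7 CPM, with 1 and 2 at 0, the 12 alveolar epithelial markers with an entry to 179 and 26.4 CPM, with 4 and 6 at 0, and the 5 airway markers to 543 and 155 CPM, with 1 at 0 in each. The 12 leukocyte markers summed to 9.25 and 7.27 CPM, with 7 at 0 in each library and Ptprc, the gene of CD45, at 0 and 1 counts. The 5 mesothelial markers summed to 151 and 127 CPM, with 1 at 0 in each, and the 4 erythroid markers to 26.8 and 6.36 CPM, with 3 at 0 in each. Smooth muscle markers summed to 1672 and 2495 CPM and pericyte markers to 193 and 113 CPM, none at 0. Of the 7 smooth muscle markers tested, 3 were higher and 2 lower past 1.5-fold, with a median log2 ratio of 0.01, so the rise in their sum was not shared by all. The 15 genes induced by tissue dissociation summed to 35542 CPM in saline and 17425 CPM in bleomycin, none at 0, and the 14 proliferation markers to 200 and 496 CPM, with 3 at 0 in saline. Of 12 proliferation markers tested, 10 were higher and 0 lower past 2-fold, with a median log2 ratio of 3.458. Of the 15 dissociation genes, 0 were higher and 7 lower past 2-fold, with a median of −0.986. Over all genes tested, 8.11% were higher and 8.59% lower past 2-fold. The part of these differences in the ribosomal protein values was not tested.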

How the data were processed

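The authors deposited 1 table of whole-number tag counts per gene for 2 SOLiD SAGE libraries, named by RefSeq transcript records. Per the submitters' processing notes, BWA 0.6.2 and the build mm9 were used, with no role given for either. Tag assignment, use of strand and any scaling before deposit are not stated, and the intervals assume unscaled counts. The labels mention no molecular identifiers; intervals and floors therefore reflect counting error alone. A single blank line was left out.

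Library sizes were scaled by TMM (factors 1.014 for saline and 0.986 for bleomycin, edgeR 4.0.16, R 4.3.3). With 1 library a group, edgeR's quasi-likelihood fit was not possible. Genes with at least 10 counts over both libraries entered an exact binomial test, two-sided, with Benjamini-Hochberg adjustment, and ratios carry exact Clopper-Pearson 95% intervals. Log2 ratios have 0.5 added to each count. The interval of the ratio of large to small sums is a normal approximation on the log scale. Predicted tags run from the 3′-most CATG over 27 bases of GENCODE M21 transcripts (GRCm38). The enzyme is general knowledge of the kit, not a label. DESeq2 1.42.0 was used for its size factors only. Scripts were tested on simulated data and used scipy 1.17.1 and pandas 2.3.3 in Python 3.11.15; figures were drawn with matplotlib 3.10.9.

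Genes and lists were chosen with earlier results of these data known. The naming rule took genes past 2-fold, the 6 highest and 6 lowest ratios past 1.5-fold, the 5 most abundant genes of each subunit, close copies with their partners, Rps27a and Fau, and up to 4 called genes of each list; the other ribosomal protein genes were named by role after their values were seen. Some genes under these rules enter sums and counts but are not reported here by name. Alternatives were other scalings, count minimums, prior counts, adjustments, an assumed variation between preparations, and smaller sets of genes.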

Additional observations from a re-analysis of the deposited data

How the results depend on the processing

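Each group is 1 library, and no paired analysis was possible because the labels give no replicate numbers and each group has a single library. A median was taken as moved when it changed by 0.1 or more on the log2 scale, and none of the ribosomal protein and translation list medians did. The counts of all genes called at 2-fold, 760 higher and 805 lower, became 401 and 491 with a minimum of 50 counts, 288 and 335 with Bonferroni adjustment, and 274 and 333 with an assumed coefficient of variation of 0.2. Ribosomal protein genes past 2-fold higher went from 2 to 1 with plain totals or with totals of the other genes, and to 0 with the assumed variation. Those past 1.5-fold went from 9 higher and 5 lower to 0 and 2 with the assumed variation. Those called at any size went from 30 and 12 to 0 and 2 with the assumed variation. Under the other scalings, minimums and adjustment, those called at any size were 27 to 32 and 8 to 13. The count at any size, and not the assumed variation, was added after seeing the data. The ratio of summed counts, 1.11 for all, was 1.08 with plain totals, 1.09 with DESeq2 size factors and 1.08 with totals of the other genes; for the large subunit it was 1.08 with plain totals and 1.09 with totals of the other genes, and for the small subunit 1.07 and 1.08. The ratio between the large to small ratios turned from 1.010 to 0.961 without the gene of each subunit with the most counts over both libraries. In the large subunit that gene was Rpl10a. The median of all genes tested changed sign, from 0.015 to −0.025 with plain totals and −0.014 with totals of the other genes, a shift of less than 0.1. Past 1.5-fold, Rps13 was lost with plain totals (1.48) and Rps14 with Bonferroni adjustment, as were Larp1, Eef2k, Eif1ax and Sdad1. Depth limits the genes under 200 counts, in particular Rps10, Rps14 and Rps4x, and the 6 untested genes.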
